A study of Mus musculus with 2 samples.

Results

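The aryl hydrocarbon receptor gene Ahr, its partner gene Arnt and 4 of the genes the receptor switches on, Ahrr, Tiparp, Cyp1a1 and Cyp1b1, were followed in KPC2 cells, a mouse pancreatic cancer cell line. These 6 genes were taken by symbol from a table of 55468 genes, in which each had 1 entry. RNA was sequenced from 1 library of untreated wild type cells and 1 library of gemcitabine-resistant cells, which had been treated over a long period with 260 ng/mL of the drug and were kept in it. Gemcitabine is a deoxycytidine analogue that blocks DNA synthesis. The labels name no allele of the line, and do not say whether the resistant cells are 1 clone or a pool. With 1 library per group there was no replicate check and no test, and every difference describes these 2 libraries. Because only the resistant cells were in the drug, its presence at harvest and the acquired resistance cannot be told apart.

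The aryl hydrocarbon receptor (AHR) is a ligand-activated transcription factor of the bHLH-PAS family. It resides in the cytosol bound to HSP90 and its co-chaperones, and moves to the nucleus once it binds a ligand such as a dioxin, a polycyclic aromatic hydrocarbon or a tryptophan metabolite. There it pairs with ARNT and binds the core motif GCGTG of xenobiotic response elements. Cyp1a1 and Cyp1b1 encode cytochrome P450 enzymes that oxidise such ligands, and Cyp1a1 is the usual marker of receptor activity. Ahrr and Tiparp encode feedback inhibitors: AHRR competes for ARNT and for the motif, and TIPARP is a mono-ADP-ribosyltransferase that acts on the receptor and lowers its activity.

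The stretches upstream of the 4 target genes are shown to mark where that motif occurs close to their starts. They come from RefSeq on GRCm38.p6, and 5 of the 6 genes were matched in the promoter table used here. They run 5′ to 3′ on the gene's own strand over the 250 bases before the RefSeq start, ending earlier where an annotated exon begins. Capitals mark GCGTG, or CACGC where the motif lies on the opposite strand. The stretches lie at chr3:65528197-65528409 (plus strand, Tiparp), chr13:74292332-74292581 (minus strand, Ahrr), chr9:57697363-57697612 (plus strand, Cyp1a1) and chr17:79715062-79715311 (minus strand, Cyp1b1).
Tiparp: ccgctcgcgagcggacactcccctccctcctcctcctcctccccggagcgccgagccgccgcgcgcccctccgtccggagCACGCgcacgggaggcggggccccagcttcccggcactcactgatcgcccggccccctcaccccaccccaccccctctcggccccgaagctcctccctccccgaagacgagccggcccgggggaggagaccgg
Ahrr: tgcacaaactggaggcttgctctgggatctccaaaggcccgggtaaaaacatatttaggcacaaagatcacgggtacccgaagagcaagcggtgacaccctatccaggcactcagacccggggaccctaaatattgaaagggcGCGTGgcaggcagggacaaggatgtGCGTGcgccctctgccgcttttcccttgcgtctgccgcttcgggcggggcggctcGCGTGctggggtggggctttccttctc
Cyp1a1: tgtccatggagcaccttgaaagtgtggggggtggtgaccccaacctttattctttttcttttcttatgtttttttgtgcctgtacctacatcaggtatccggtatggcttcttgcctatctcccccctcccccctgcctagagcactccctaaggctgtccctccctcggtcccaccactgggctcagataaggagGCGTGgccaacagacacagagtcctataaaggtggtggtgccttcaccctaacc
Cyp1b1: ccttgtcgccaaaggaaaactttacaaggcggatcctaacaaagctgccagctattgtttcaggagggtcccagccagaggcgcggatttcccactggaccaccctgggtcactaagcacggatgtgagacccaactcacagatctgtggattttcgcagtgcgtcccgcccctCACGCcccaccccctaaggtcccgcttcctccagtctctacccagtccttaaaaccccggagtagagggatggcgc

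Ahrr held the motif 3 times, and Tiparp, Cyp1a1 and Cyp1b1 held it 1 time each, on the opposite strand in Tiparp and Cyp1b1. The Cyp1a1 match lay 54 to 50 bases before the start and the Tiparp match 170 to 166 bases before it. Arnt held 1 match. The motif is common: 28.2% of 32851 mouse promoter windows of the same length held at least 1 match on either strand, as did 45.6% of the windows of genes measured here. At least 3 matches, as in Ahrr, stood in 2.77% of all windows and 5.46% of those of measured genes. A match is a description of the letters and not a binding site, and GC content differed between the windows (75.2% in Tiparp, 53.6% in Cyp1a1, a median of 52.4% over all).

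Values are in FPKM, fragments scaled to transcript length and library depth, so levels can be compared between genes. Genes are called measured where either library reached 1 FPKM, a level met by 12193 genes and by 3 of the 6: Ahr, Arnt and Tiparp. Differences are given as log2 ratios, resistant over wild type, after 1 was added to each FPKM. This makes differences of low genes look smaller, and a log2 ratio of 1 or more in size is called at least 2-fold. Of the 6 genes, Tiparp alone was at least 2-fold higher in resistant cells and none was at least 2-fold lower. As background, 7.9% of the measured genes passed the 2-fold line upward and 8.37% downward, with a median log2 ratio of 0.02. Low values in the table fell on whole-fragment steps, from which the number of fragments behind each value was estimated. The FPKM ranges given below are exact Poisson 95% intervals on those numbers, and the ratio ranges are exact binomial 95% intervals. Both kinds cover counting error only. None of them holds the spread between cultures, which 1 library per group cannot show.

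**Figure D1:**
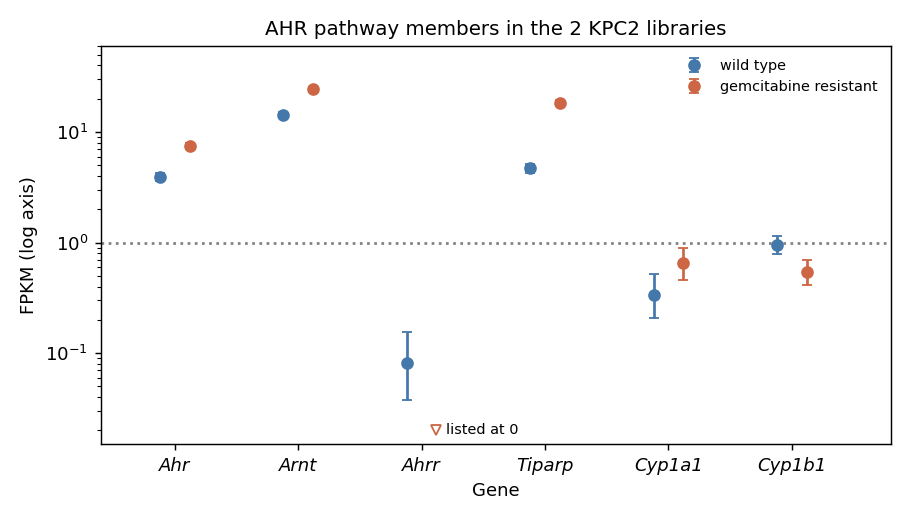
FPKM of the 6 genes (log axis) in the wild type (blue) and the resistant (orange) library. Bars are exact Poisson 95% intervals for counting error, hidden by the point where narrow, and the dotted line marks 1 FPKM: Ahr, Arnt and Tiparp lie above it in both libraries, Cyp1a1, Cyp1b1 and Ahrr below it in both.

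The receptor gene itself, Ahr, stood at 3.90 FPKM in wild type cells (3.57 to 4.26 for counting error, from about 503 fragments) and at 7.43 FPKM in resistant cells (6.96 to 7.92, about 929 fragments). The resistant value was 1.90 times the wild type value (1.71 to 2.13), a log2 ratio of 0.78 on the scale with 1 added. The counting intervals did not overlap, yet the difference stayed under the 2-fold line, and 12.4% of measured genes had a ratio at least as high. Ahr (ENSMUSG00000019256) lies on the minus strand of chromosome 12 of GRCm38, from 35497974 to 35535038. Its exons share 127 bases with the non-coding gene Gm48236 on the other strand, which was listed at 0 in both libraries.

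Arnt (ENSMUSG00000015522, chromosome 3, 95434388 to 95497240, plus strand), which encodes the obligate partner of AHR and of the hypoxia-inducible factors, was the most abundant of the 6 genes in both libraries. It stood at 14.2 FPKM in wild type (13.2 to 15.2) and 24.4 FPKM in resistant cells (23.2 to 25.7), 1.72 times as high (1.58 to 1.88), with a log2 ratio of 0.74. Of the measured genes, 13.4% had a ratio at least as high. Arnt and Ahr thus differed between the libraries by similar factors with overlapping counting intervals, and the FPKM of Arnt was 3.63 times that of Ahr in wild type and 3.29 times in resistant cells. Arnt has 11 annotated transcripts, and the fragment estimate for it took the principal transcript.

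Tiparp (ENSMUSG00000034640, chromosome 3, 65528410 to 65555518, plus strand), the feedback inhibitor, differed most. It stood at 4.70 FPKM in wild type cells (4.27 to 5.15, about 453 fragments) and at 18.4 FPKM in resistant cells (17.5 to 19.3, about 1721 fragments). That is 3.92 times as high (3.53 to 4.35), a log2 ratio of 1.77, and 277 of the 12193 measured genes, or 2.27%, had a ratio at least as high, Tiparp included. Set against the receptor gene, Tiparp was at 1.20 times the FPKM of Ahr in wild type and at 2.48 times in resistant cells. The authors' deposited table gives Tiparp a log2 fold change of 1.97, the ratio of the same 2 values with nothing added. Its test rests on 1 library per side and cannot measure the spread between cultures, so its calls are not read here. Exons of Tiparp share 223 bases with 4931440P22Rik, a pseudogene on the other strand at 0.25 FPKM in wild type and 0.49 FPKM in resistant cells, and the table does not say how shared fragments were split.

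The other feedback gene, Ahrr (ENSMUSG00000021575, chromosome 13, 74211118 to 74292331, minus strand), did not share this pattern. It stood at 0.082 FPKM in wild type cells, about 9 fragments (0.037 to 0.16 FPKM), and was listed at 0 in resistant cells, so no fold is given. The authors' deposited table marks it as not tested.

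The P450 targets were low in both libraries. Cyp1a1 (ENSMUSG00000032315, chromosome 9, 57687928 to 57703824, plus strand) stood at 0.34 FPKM in wild type (0.21 to 0.52, about 20 fragments) and 0.65 FPKM in resistant cells (0.46 to 0.89, about 37 fragments), 1.91 times as high with a counting interval of 1.08 to 3.47. Cyp1b1 (ENSMUSG00000024087, chromosome 17, 79701537 to 79715061, minus strand) lay the other way, at 0.96 FPKM in wild type (0.79 to 1.15, about 114 fragments) and 0.54 FPKM in resistant cells (0.41 to 0.69, about 62 fragments), a ratio of 0.56 (0.40 to 0.77). On the scale with 1 added their log2 ratios were 0.30 and -0.35. The FPKM of Cyp1b1 was 2.82 times that of Cyp1a1 in wild type cells, and 0.83 times in resistant cells, where the counting intervals of the 2 genes overlapped. Both resistant values were under 1 FPKM.

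The order of levels in wild type cells ran from Arnt through Tiparp, Ahr, Cyp1b1 and Cyp1a1 to Ahrr, and no neighbouring pair had overlapping counting intervals. In resistant cells Arnt again came first, followed by Tiparp, Ahr, Cyp1a1, Cyp1b1 and Ahrr, with Cyp1a1 and Cyp1b1 not separable. Among the 4 target genes, then, 1 was at least 2-fold higher and the other 3 stayed under 1 FPKM in both libraries.

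**Figure D2:**
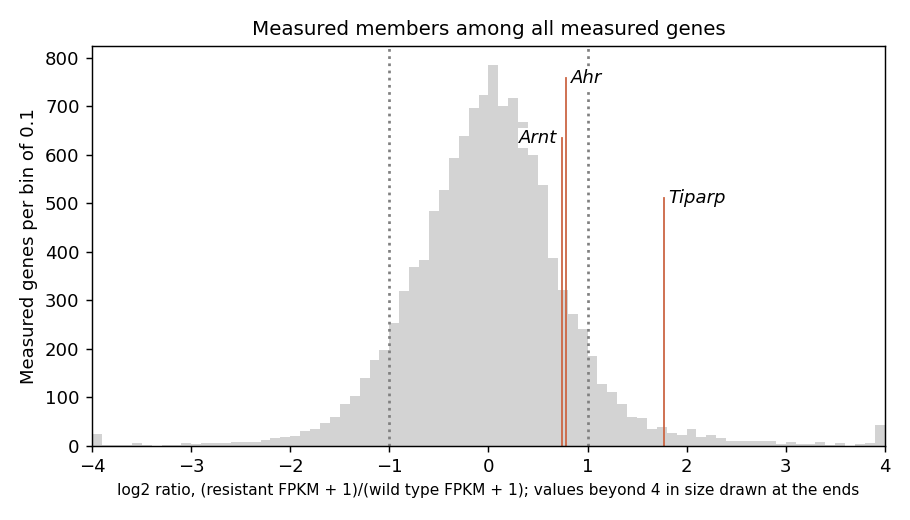
Number of measured genes in each 0.1 bin of the log2 ratio, resistant against wild type, with dotted lines at the 2-fold bounds. Ahr (0.78) and Arnt (0.74) lie on the right shoulder of the 12193 genes, inside the bounds, and Tiparp (1.77) lies beyond.

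Neighbouring genes were compared for the 3 measured members. The nearest measured protein-coding genes to Tiparp were Ssr3, at 219.6 against 197 FPKM (resistant against wild type), and Ccnl1, at 10.9 against 14.4 FPKM. Beside Arnt, Setdb1 stood at 5.57 against 9.73 FPKM and Golph3l at 17.7 against 18.9 FPKM. Beside Ahr, Snx13 stood at 20.7 against 17.7 FPKM, while Tspan13, on the other side, was at least 2-fold higher at 15.6 against 4.66 FPKM.

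The proteins that hold AHR in the cytosol are encoded by genes that were well expressed in both libraries, and none of the 5 was 2-fold apart (median log2 ratio -0.07). The chaperone genes Hsp90aa1 and Hsp90ab1 stood at 692 against 705 and 897 against 940 FPKM, resistant against wild type. Ptges3, encoding the co-chaperone p23, stood at 168 against 148 FPKM. The kinase gene Src stood at 14.8 against 17.2 FPKM.

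Among 13 bHLH-PAS relatives, which can compete for ARNT or form similar pairs, 5 were measured, 1 was at least 2-fold higher and none was 2-fold lower. Hif1a, the oxygen-regulated partner of ARNT, stood at 82.0 FPKM in resistant and 28.2 FPKM in wild type cells (log2 ratio 1.51), above Arnt in both. Of 10 targets of the pair of HIF and ARNT, 9 were measured and 2 were at least 2-fold higher: the growth factor gene Vegfa, at 50.04 against 13.5 FPKM, and Ndrg1, at 149 against 56.3 FPKM. The other 7 lay within 2-fold on both sides, and the list's median was 0.31. They are named after their values were seen. Slc2a1, Pgk1, Ldha and Bnip3 were higher, with log2 ratios of 0.97, 0.35, 0.30 and 0.31. Egln3, Pdk1 and Ankrd37 were lower, at -0.57, -0.53 and -0.80. Ankrd37, at 1.00 against 2.49 FPKM, was inside the 2-fold line only because 1 was added. Of 7 coactivator genes used by AHR, the chromatin remodelling ATPase gene Smarca4 was at least 2-fold higher (89.7 against 40.4 FPKM). None was 2-fold lower on the scale with 1 added, and the median was -0.03. Crebbp, at 9.57 against 19.5 FPKM (log2 ratio -0.95), was inside the line only because 1 was added. Ncoa1 lay the other way at 9.47 against 5.09 FPKM (log2 ratio 0.78). Crebbp and Ncoa1 are named after their values were seen. All 6 genes of AHR corepressors and turnover lay within 2-fold.

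Of 18 further genes reported as AHR targets, 14 were measured. Of these, 6 were at least 2-fold higher and 1 was 2-fold lower, beside 7.9% and 8.37% of all measured genes. The median log2 ratio of the 14 was 0.63, and 0.13 over all 18 without the level filter. Fgf21 and Vav3 passed that filter through the resistant library alone. The highest ratios were those of Fgf21, a secreted metabolic hormone (7.58 against 0.11 FPKM), and Ptgs2, which encodes the prostaglandin-forming enzyme COX-2 (25.5 against 3.73 FPKM). Areg, an EGFR ligand gene, Slc7a5, an amino acid transporter gene, Vav3 and the quinone reductase gene Nqo1 were the other 4, named after their values were seen, with log2 ratios of 2.27, 1.38, 1.31 and 1.13. Several of these have known inducers besides AHR, among them ATF4 for Fgf21 and Slc7a5 and NRF2 for Nqo1. The part of AHR or of any other inducer in these values was not tested. Nfe2l2, which encodes NRF2, was the gene 2-fold lower, at 43.7 against 149.8 FPKM.

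Detoxifying enzymes classed with Cyp1a1 in the AHR battery lay on both sides of the wild type level; they are named here after their values were seen. Gsta1 stood at 187 against 164 FPKM, Gsta2 at 52.4 against 29.8 FPKM and Aldh3a1 at 122.7 against 88.6 FPKM, resistant against wild type, all within 2-fold. The glucuronosyltransferase gene Ugt1a6a stood at 15.6 against 29.1 FPKM and the P450 gene Cyp2s1 at 24.8 against 49.0 FPKM, both nearly 2-fold lower with log2 ratios of -0.86 and -0.95. Cyp1a2 was listed at 0 in both libraries. The Ugt1a genes share exons, so how fragments were divided among them is uncertain.

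Enzymes of tryptophan breakdown, a pathway that yields AHR ligands, were mostly low. Of 10 genes, 3 were measured. The dioxygenase genes Ido1, Ido2 and Tdo2, which open the pathway, were under 1 FPKM in both libraries, the highest being Ido1 at 0.22 FPKM in resistant cells. The kynurenine aminotransferase genes Kyat1 (3.19 against 1.04 FPKM) and Kyat3 (6.35 against 2.63 FPKM) were just past the 2-fold line, with log2 ratios of 1.04 and 1.02. Afmid, the third, stood at 10.03 against 11.3 FPKM.

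Of the 14 PARP family relatives of Tiparp, 13 were measured, none was at least 2-fold higher and 1 was lower, with a median log2 ratio of 0.12. The lower one, Parp8, stood at 2.28 FPKM in wild type cells and was listed at 0 in resistant cells. The 4 redox partner genes of P450 enzymes, such as the reductase gene Por at 60.2 against 75.3 FPKM, lay within 2-fold. Of 6 other xenobiotic receptor genes, only the 2 coding for RXR alpha and beta were measured, both within 2-fold, and the pregnane X receptor gene Nr1i2 was listed at 0 in wild type and at 0.22 FPKM in resistant cells. Over all 10 lists, 12 of 68 measured genes were at least 2-fold higher and 2 were lower, beside 7.9% and 8.37% of all measured genes. Of the 12, 6 were further reported AHR targets. The lists were chosen with earlier results of these data known, so these counts are a description only.

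**Figure D3:**
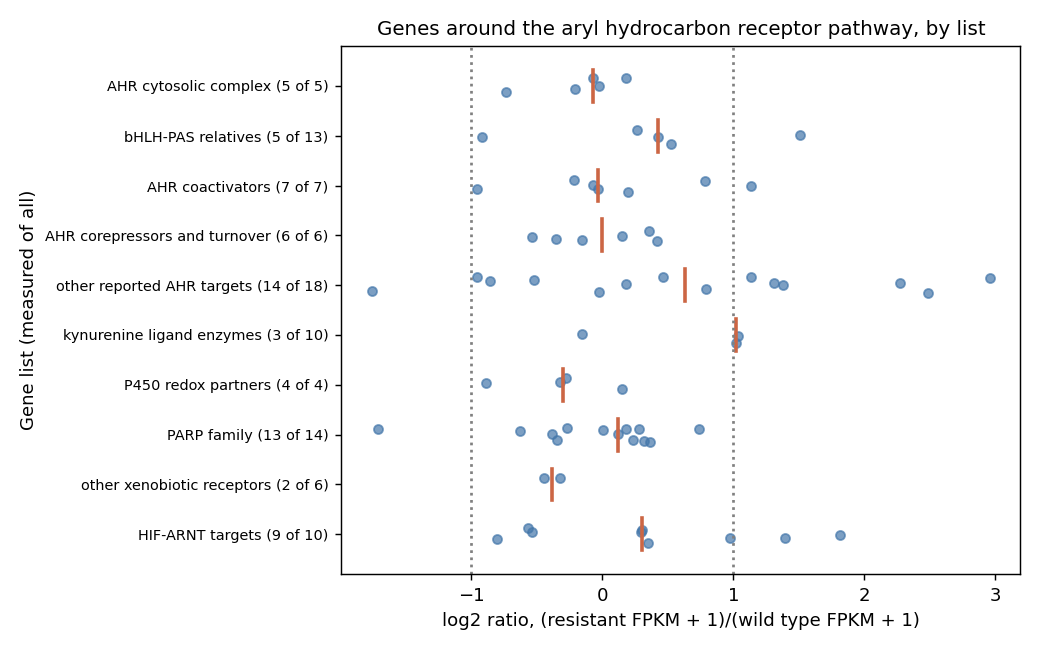
Each point is 1 measured gene of a list, placed by its log2 ratio, resistant against wild type; red bars are list medians and dotted lines the 2-fold bounds. The further reported AHR targets spread widest, from Nfe2l2 (-1.76) to Fgf21 (2.96), while the 5 cytosolic complex genes lie within the bounds.

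The libraries carried the markers of epithelial cells, with Krt8, Krt18, Krt19 and Cdh1 all abundant, the lowest of these being Cdh1 at 164 FPKM in resistant and 206 FPKM in wild type cells, though Epcam was under 1 FPKM in both. Krt7, another epithelial keratin gene, was at least 2-fold higher, at 32.6 against 7.56 FPKM. The 4 islet markers were listed at 0 in both libraries and none of 6 fibroblast markers reached 1 FPKM. Leukocyte markers summed to 7.24 FPKM in resistant and 1.54 FPKM in wild type cells, with 2 of 6 genes at 1 FPKM or more. These were Cd68, at 5.48 against 1.17 FPKM, and Lyz2, at 1.53 against 0.36 FPKM. Ptprc stood at 0.23 FPKM in resistant cells and 0 in wild type, and Itgam at 0 against 0.009 FPKM. The T cell marker Cd3e was at 0 in both. Endothelial markers summed to 10.4 against 7.49 FPKM, with 1 of 4 genes measured, Egfl7 at 10.2 against 7.48 FPKM. Acinar markers summed to 1.55 against 4.38 FPKM, with 1 of 5 measured, Cela1 at 1.48 against 4.38 FPKM. The part of other cell types in the differences above was not tested. By the fitted steps, 1 fragment on a transcript with 1 kilobase left after the fitted offset was worth 0.042 FPKM in wild type and 0.043 FPKM in resistant cells, and less on longer transcripts in proportion.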

How the data were processed

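The authors' deposited table names no unit. The authors' values were taken to be FPKM, scaled by them to length and depth before deposit. They are not whole, sum to 998508 (wild type) and 1197280 (resistant) and, when low, fall on whole-fragment steps. It also holds the authors' log2 fold change, test statistic (a score), p-value and q-value. HISAT2, StringTie and GRCm38 appear in the submitters' processing notes, with no role or version. The 13 entries marked failed or too deep were left out, and repeated symbols were summed.

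Steps were fitted on single-transcript genes of 1000 to 8000 bases: after 160 bases were taken off the length, 93.0% of low wild type values and 93.8% of low resistant values, up to 5.5 fragments, were within 0.1 of whole. Fragments of the 6 genes follow from these and the principal transcript (the shorter of 2 for Cyp1a1). Ratio intervals are exact binomial, conditional on the total. PCR copies are not independent molecules.

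The settings were a pseudocount of 1, a filter of 1 FPKM and a 2-fold threshold, with no test. The 6 genes and all lists were chosen with earlier results of these data known. Named are the 6 genes, the cytosolic complex, up to 2 genes at least 2-fold apart in each direction per list, nearest measured protein-coding neighbours, and the 3 genes nearest Tiparp in log2(FPKM + 1). Some genes that this rule takes are not reported here. Positions are from GENCODE on GRCm38. Other pseudocounts, filters, scalings, thresholds, handling of repeated symbols and a protein-coding background were tried. The ratio step was tested on simulated data. Software was Python 3.11.15 (numpy 2.4.6, scipy 1.17.1, pandas 2.3.3, matplotlib 3.10.9).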

Additional observations from a re-analysis of the deposited data

How the results depend on the processing

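No sign of a member's log2 ratio changed, but none of the settings could have changed one. A pseudocount cannot change a sign, and the handling of repeated symbols cannot alter genes with 1 entry. Rescaling multiplied the resistant values by 0.988 or 0.940, too little to reverse the ratios of these genes. At a pseudocount of 0.1 the log2 ratio was 1.95 for Tiparp, 0.77 for Cyp1a1 and -0.73 for Cyp1b1, and at a pseudocount of 5 it was 0.48 for Ahr, 0.62 for Arnt, 1.27 for Tiparp and -0.10 for Cyp1b1. Both pseudocounts change what is added to low values by construction. Of 25 such values, the other 18 stayed within the counting interval. These include the values for the handling of repeated symbols, which could not differ. With the resistant library rescaled to the same upper quartile Tiparp was at 1.68. No ratio was recomputed for Ahrr, which is listed at 0 in resistant cells. Tiparp was at least 2-fold higher under all settings with that threshold, and at a 4-fold threshold 0 members were higher.

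Over all measured genes, 1553 were at least 2-fold lower at a pseudocount of 0.1. At a pseudocount of 5, 428 were higher and 297 lower, and at a 4-fold threshold 220 and 128. Over the pathway lists the count lower was 4 at a pseudocount of 0.1 and with the upper quartile rescaled, 1 with a pseudocount of 5 or with 5 FPKM as the filter, and at a 4-fold threshold 3 genes were higher and 0 lower. Without the level filter the median of the further reported AHR targets was 0.13. No paired analysis was possible because each group has 1 library, and no replicate could be left out for the same reason. Counting error limits Ahrr, Cyp1a1 and Cyp1b1 most.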

Other observations

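Most cytochrome P450 genes of families 1 to 3, a set chosen after their values were seen, were under 1 FPKM in both libraries. Of 60 protein-coding genes, 43 had a listed value of 0 in each library and 4 reached 1 FPKM. Among all 55337 gene symbols, coding or not, 12193 reached it, and 10557 of these were protein-coding. The share of all protein-coding genes that reached it is not given here. Cyp2s1 was the most abundant, followed by Cyp2c65 at 10.3 FPKM in resistant and 16.2 FPKM in wild type cells and Cyp3a13 at 7.07 against 13.1 FPKM. The 3 had log2 ratios of -0.95, -0.60 and -0.80. Cyp2c23 stood at 1.31 FPKM in resistant cells and 0.024 FPKM in wild type.

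The measured protein-coding genes nearest Tiparp in log2(FPKM + 1) over the 2 libraries were Stk17b, at 18.6 FPKM in resistant and 4.86 FPKM in wild type cells (distance 0.043), Lrrc75a (distance 0.079) and Gmfg (distance 0.094). With 2 libraries this likeness is a shared pair of levels and nothing more. Neighbours of the members under 1 FPKM were also looked up. Beside the P450 gene Cyp1a1, the measured neighbour Csk was at least 2-fold lower, at 18.3 against 43.6 FPKM, and Edc3 on the other side stood at 3.54 against 5.66 FPKM. Exoc3 and Pdcd6 beside Ahrr had log2 ratios of -0.10 and 0.30. Rmdn2 and Atl2 beside Cyp1b1 had log2 ratios of -0.05 and 0.29.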
